A study of Mus musculus with 21 samples.

Results

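Wild-type Kdm5b was set directly against its H499A mutant in mouse acute myeloid leukaemia cells transformed by MLL-AF9, a fusion of the histone methyltransferase MLL with the protein AF9. The comparison uses 4 of the 21 RNA-seq libraries of the study, the 2 with the WT construct and the 2 with the H499A construct, and it covers all genes of their table. All of these cells were infected with an MSCV-neo retrovirus, carrying either Kdm5b WT, the mutant H499A that the labels call demethylase-dead, or no insert (EV), and 2 EV libraries served as the control. The cells are an established line, and all 3 groups share the MLL-AF9 fusion, the viral backbone and the medium, which contained serum and stem cell factor. The other libraries used here are 3 with an shRNA against Kdm5b (shKdm5b) and 3 with the empty pLKO.1-puro lentivirus (shEV), in another line, transformed by NUP98-NSD1. The labels do not say whether the libraries of a group came from separate cultures or infections, so every p-value measures only the spread between these libraries, which may be technical. They also do not say which of 2 library kits made which library.

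KDM5B belongs to the KDM5 family of histone demethylases, which remove methyl groups from lysine 4 of histone H3, a mark of active promoters. Its catalytic JmjC domain holds an iron ion between 2 histidines and a glutamate, and the demethylation reaction needs that iron together with oxygen and 2-oxoglutarate. H499A replaces one of these histidines by alanine, a change used to separate catalysis from the other functions of the protein. In MLL-rearranged leukaemia, the fusion keeps the HOXA genes and their partner Meis1 active and blocks the maturation of myeloid precursors into monocytes and granulocytes.

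The codon of the replaced histidine is shown in capitals within its exon because the whole comparison turns on it. It is CAC, at chr1:134604580-134604582 on the plus strand of GRCm38, in exon 11 of Kdm5b transcript ENSMUST00000047714.13 (GENCODE), and the stretch printed is chr1:134604550-134604612.
Kdm5b around H499: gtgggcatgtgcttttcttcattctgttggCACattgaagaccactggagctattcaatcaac
This is the mouse gene's own sequence. The labels give neither the species nor the sequence of the introduced Kdm5b, so how fully its reads were counted as Kdm5b is not known.

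Kdm5b itself was far higher with WT than with H499A. Its normalised read count was 1409.6 and 1416 with WT, 309 and 279 with H499A and 114 and 128 with EV. The 3 groups did not overlap, WT lay highest in both libraries, and the H499A libraries stood between WT and EV. WT was 4.8 times H499A, a log2 difference of 1.35 ± 0.04 (SE, n = 2 libraries each; limma adjusted p = 3.02e-20) on the scale of the deposited values, a variance-stabilised log2 scale on which genes of few reads differ by less than their counts do. An exact 2-sided permutation test gave p = 0.333, the smallest that 2 against 2 libraries allow. Kdm5b thus stood 1291 normalised counts above the EV mean with WT and 173 above it with H499A. Reads of the construct and of the cells' own Kdm5b were not separated. Every difference below is therefore a difference between 2 constructs of unequal level as well as unequal sequence, and in this design the substitution and the level cannot be told apart.

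The other H3K4 demethylases moved little. Kdm5a, a member of the same family, stood at 2489 and 2377 with WT and 2293 and 2293 with H499A, a log2 difference of 0.07 ± 0.03 (limma adjusted p = 0.0384). Kdm5c, an X-linked family member, stood at 4107 and 3907 with WT and 4298 and 4196 with H499A, a difference of -0.07 ± 0.03 (limma adjusted p = 0.0203). Neither was stable: the call was lost in 9 and 4 of the 17 alternative settings, respectively. Kdm1a and Kdm1b, the flavin-dependent demethylases of the same lysine, were not called, with 95% intervals of the log2 difference of -0.08 to 0.04 and -0.02 to 0.13.

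Of 9458 genes with enough reads to test, 5146 (54.4%) were called between WT and H499A at a Benjamini-Hochberg adjusted p under 0.05 in limma. Of these, 2663 (28.2% of the tested genes) were higher with WT and 2483 (26.3%) lower. Most differences were small: the median size among called genes was 0.16 log2 units, and 77.6% of them differed by under 0.25. At least 2-fold in normalised counts, 107 called genes (1.13% of those tested) were higher with WT and 141 (1.49%) lower. The 2 libraries of a group were close, with chi-square values of 1.5 (H499A), 1.77 (EV) and 9.98 (WT) per degree of freedom, where counting error alone gives 1. WT replicate 1 stood apart through 4 ribosomal RNA-related genes (AY036118, Rn18s-rs5, Lars2 and n-R5-8s1), which took 1.32% of its reads and 0.351% to 0.446% of those of the other 5. Without these genes the WT value was 2.14. Their log2 differences of 0.79 to 0.93 with all libraries became -0.07 to 0.15 without that library, and they are not read as results. Counts of 4153 to 5012 called genes were reached when any 1 library was left out. Depth was 17.3 to 20 M reads per library. WT and H499A did not overlap in 75.8% of all tested genes, called or not. Against EV, 62.2% of the tested genes were called with WT (29.8% higher and 32.4% lower) and 49.6% with H499A (22.7% higher and 26.9% lower); these comparisons share libraries with the main one and are given below only as each gene's own values. A gene was tested when 2 libraries held at least 145 normalised counts, and 108 genes reached this only through the H499A libraries and 115 only through WT. Such a gene had to differ between the constructs. With the EV libraries alone deciding what is tested, an alternative added after seeing the data, 9037 genes were tested, 28% were called higher with WT and 26.2% lower.

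**Figure D1:**
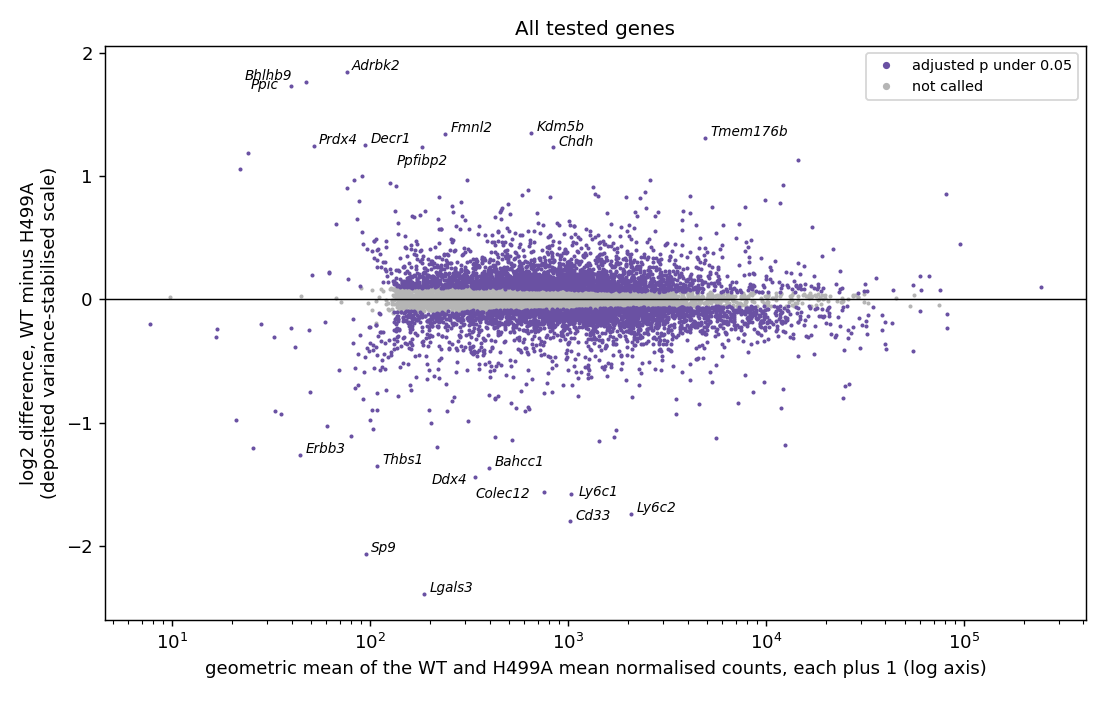
Log2 difference between WT and H499A (y axis, deposited variance-stabilised scale) against the mean normalised read count (x axis, log scale) for all 9458 tested genes, with the 5146 called genes in purple and the rest in grey. Most called genes lie close to 0, and a few genes of low to middle count, from Adrbk2 at the top to Lgals3 at the bottom, lie far outside.

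Among the named genes, the largest difference in favour of WT was in Adrbk2, named Grk3 in RefSeq (chr5:112910478-113015660), a kinase that desensitises G protein-coupled receptors. It was at 710.1 and 705 with WT, 6.5 and 7.72 with H499A and 173 and 156 with EV. WT was highest, H499A was near silence, and EV stood between them. Prdx4, a peroxidase of the endoplasmic reticulum, had the same order, at 338 and 317 with WT, 5.57 and 8.68 with H499A and 41.4 and 50.7 with EV. Ppic, a secreted peptidyl-prolyl isomerase, was at 529 and 556 with WT, 2.79 and 0.965 with H499A and 105 and 102 with EV, and its H499A libraries held only 3 and 1 reads. The log2 difference of Adrbk2 was 1.84 ± 0.04 (SE; limma adjusted p = 1.41e-22). Prdx4 and Ppic passed the count filter only through the WT libraries, as did Fmnl2 and Ppfibp2, and Sp9 and Thbs1 only through H499A, so the values of these 6 are a description, with no test.

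In Bhlhb9 and Decr1 the H499A libraries alone stood apart, and WT lay near EV. Bhlhb9, a member of the GPRASP family that binds G protein-coupled receptors, was at 590.3 and 577 with WT, 1.86 and 3.86 with H499A and 625 and 654 with EV, with 2 and 4 reads under H499A. Decr1, a mitochondrial reductase needed to oxidise unsaturated fatty acids, was at 412 and 415 with WT, 23.2 and 17.4 with H499A and 433 and 411 with EV. Their log2 differences between WT and EV were -0.08 and -0.02, against -1.84 and -1.27 between H499A and EV.

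In Fmnl2 and Ppfibp2 it was the WT libraries that stood apart. Fmnl2, a formin that elongates actin filaments, was at 716 and 719 with WT, 71.5 and 85.9 with H499A and 68.1 and 64.7 with EV, so WT was 9.12 times H499A. Ppfibp2, a liprin of cell adhesion sites, was at 557 and 567 with WT, 59.4 and 56 with H499A and 83.8 and 77.7 with EV, and here WT was 9.74 times H499A. Tmem176b, a membrane protein of myeloid and dendritic cells, and Chdh, the mitochondrial choline dehydrogenase, were high in every library. Tmem176b stood at 7991 and 8351 with WT, 2917 and 3019 with H499A and 4697 and 4581 with EV. Chdh stood at 1670.1 and 1582 with WT, 452 and 415 with H499A and 1008 and 1006 with EV. In both genes WT was above EV and H499A below it.

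Lgals3, which encodes the macrophage lectin galectin-3 (chr14:47373860-47386167), showed the largest difference of all among the named genes. It was at 18.9 and 26.5 with WT, 1461 and 1489 with H499A and 377 and 348 with EV. H499A was 64.9 times WT and EV lay between, a log2 difference of -2.39 ± 0.04 (limma adjusted p = 7.85e-25). Sp9, a transcription factor of limb and forebrain development, was at 10.5 and 6.88 with WT, 877 and 972 with H499A and 42.4 and 47.5 with EV. Thbs1, the matrix protein thrombospondin, was at 22.1 and 23.6 with WT, 487 and 483 with H499A and 68.1 and 55 with EV. In both, only the H499A libraries reached more than 100 normalised counts. Bahcc1, whose BAH domain binds methylated lysine 27 of histone H3, was at 149 and 164 with WT, 1038 and 980.4 with H499A and 395 and 414 with EV, again with EV in the middle.

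Cd33, Ly6c2, Ly6c1, Colec12 and Ddx4 were raised with H499A, while WT stayed much nearer to EV. Cd33, a sialic acid-binding receptor of myeloid cells, was at 407 and 404 with WT, 2564 and 2549 with H499A and 640.1 and 617 with EV. Ly6c2, the surface marker of inflammatory monocytes, was at 1000.0 and 950.2 with WT, 4409.7 and 4491 with H499A and 804 and 777 with EV, so that H499A was 4.56 times WT. Ly6c1 is its near-identical neighbour, and how reads were split between them is uncertain; it was at 458 and 469.7 with WT, 2221 and 2389 with H499A and 332 and 397 with EV. In each of the 3, WT and H499A lay far apart. Colec12, a scavenger receptor, was 5.68 times higher with H499A than with WT, and Ddx4, an RNA helicase of the germ line, 8.09 times. Erbb3, a receptor of the epidermal growth factor receptor family, had the opposite build: 6.3 and 3.93 with WT, 342 and 299 with H499A and 277 and 274 with EV, so the WT libraries alone were near silence.

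**Figure D2:**
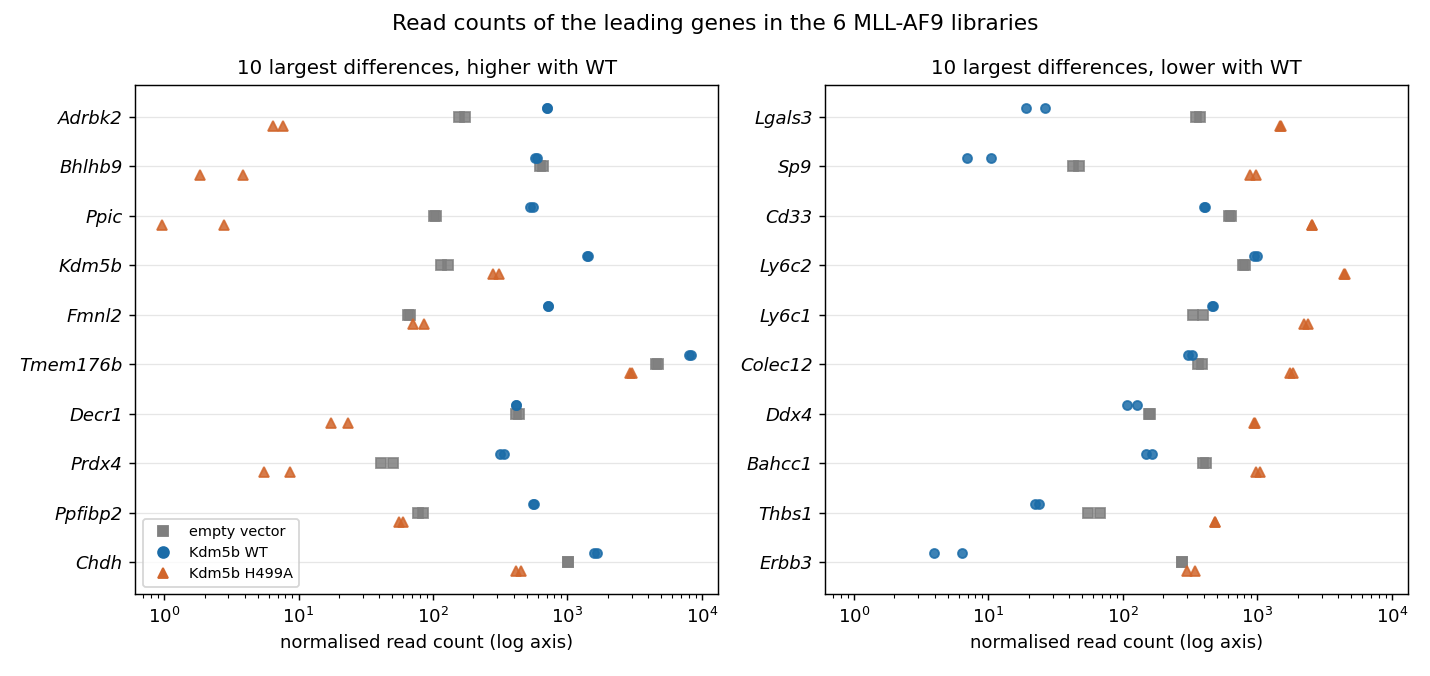
Normalised read counts (x axis, log scale) in each of the 6 MLL-AF9 libraries for the 10 largest differences in each direction, with 2 points per group for empty vector, WT and H499A. WT and H499A do not overlap in any of these genes, and the empty-vector libraries sit with WT in Bhlhb9 and Decr1, with H499A in Fmnl2 and Erbb3, and between both in Lgals3.

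Monocyte and macrophage genes were mostly higher with WT. Of 24 tested members 18 were called higher and 5 lower, with a median log2 difference of 0.33, beside a median of 0.01 and 28.2% called higher over all tested genes. With the filter on EV alone, 15 of 20 members were higher and 4 lower. Lyz2, the macrophage lysozyme, was at 21060.4 and 22242 with WT, 9765 and 9415 with H499A and 5334 and 4936 with EV, and WT was 2.26 times H499A (log2 1.13 ± 0.03, limma adjusted p = 4.23e-21); it has a close copy, Lyz1, and how reads were shared between them is uncertain. Cd14, the co-receptor for bacterial lipopolysaccharide, was at 1980.0 and 2086 with WT, 899 and 917 with H499A and 758 and 793 with EV. Csf1r, the receptor for macrophage colony-stimulating factor, was at 7504 and 7674 with WT, 4839 and 4785 with H499A and 1891 and 1636 with EV. In these 3 genes every WT library was above every H499A library. Adgre1 (the F4/80 antigen) and Mpeg1, which encodes a pore-forming protein of macrophages, were higher with WT as well, by 0.83 and 0.59 log2 units. The 5 members that were lower with WT were Lgals3, Ly6c2, F13a1 (a clotting factor subunit made by monocytes), Fcgr1 (a high-affinity antibody receptor) and Clec4e (a lectin receptor for microbial glycolipids), with F13a1 at 8532 and 8577 with WT, 16486 and 16099.9 with H499A and 10534 and 10549 with EV. Fewer mature cells and less RNA per cell cannot be told apart in bulk RNA, here and in the lists that follow.

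The lists next to this one went mostly the same way. Lysosomal genes were higher with WT in 14 of 22 and lower in 2, with a median of 0.18. Over all tested genes, 28.2% were called higher and 26.3% lower. Grn, a lysosomal growth factor precursor, was at 10195 and 10333 with WT, 5894 and 5903 with H499A and 3725 and 3522 with EV. Ctsh, a lysosomal protease, was at 233 and 239.8 with WT, 0 and 2.89 with H499A and 40.4 and 28.1 with EV, so almost no read was left with H499A, and it passed the filter only through WT. Toll-like receptor and inflammasome genes were higher in 10 of 17 and lower in 0 by limma (0 at an unadjusted p under 0.05, and 0 by voom), with a median of 0.11, and the other 7 did not pass the test. With the filter on EV alone, 7 of 14 were higher, since Tlr6 and Tlr7 had passed only through WT and Tlr1 lay below the filter in EV. Nlrp3, the sensor of an inflammasome, was 1.95 times higher with WT, and Tlr1 and Tlr7, receptors for bacterial lipopeptides and for single-stranded RNA, 2.08 and 3.11 times. Growth factor and chemokine receptors were higher in 14 of 21 and lower in 3, among them Ccr2, which brings monocytes out of the marrow, at 9611 and 9195 with WT, 6662 and 6683 with H499A and 3548 and 3249.7 with EV. The 3 lower ones were Ccr1, Flt3 and Il6st, at -0.58, -0.35 and -0.21 log2 units. With the filter on EV alone, 13 of 20 receptors were higher and 3 lower, since 1 had passed only through WT.

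Granule genes did not move as a block. All 12 tested azurophil granule genes were called, 7 higher and 5 lower with WT. Over all tested genes 54.4% were called, 28.2% higher and 26.3% lower. Mpo, the myeloperoxidase of granulocyte precursors, was at 110435 and 112686 with WT, 81621 and 81107 with H499A and 84078 and 80481 with EV, a log2 difference of 0.45 ± 0.02. Ms4a3, a marker of granulocyte and monocyte progenitors, was 1.93 times higher with WT. Prss57, a serine protease of the same granules, was 2.24 times higher with H499A. Among 9 tested late granule genes, 5 were higher and 3 lower with WT. Mmp8, a collagenase, and Fpr2, a receptor for formylated peptides, were higher with WT by 0.52 and 0.55 log2 units. Padi4, which citrullinates histones, and Lcn2, which binds bacterial siderophores, were lower by 0.59 and 0.58. Of the 16 late granule genes with values, the others lay below the count filter. Among the 16, 3 had 0 reads in both WT libraries, and none had 0 reads in both libraries of EV or of H499A. Those 3 lay below the count filter and were not tested. The share of all genes at 0 reads in both WT libraries was not computed, so this is only a description.

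Transcription factors of the myeloid lineage were split, 11 of 21 higher and 7 lower with WT (median 0.13), beside 28.2% higher and 26.3% lower over all tested genes. Of the 21, 2 passed the count filter only through H499A and 1 only through WT. With the filter on EV alone, 9 of 17 were higher and 5 lower. Cebpa, which commits progenitors to the granulocyte and monocyte lines, was at 2070.3 and 2103 with WT, 928 and 976 with H499A and 2376 and 2387 with EV. WT lay close to EV and H499A well below both, and WT was 2.19 times H499A (log2 0.84 ± 0.03, limma adjusted p = 2.72e-18). Runx1, a master regulator of blood formation, was at 2295 and 2264 with WT, 1446 and 1444 with H499A and 2028 and 1988 with EV, so here WT lay above EV and H499A below it. Irf8, needed for monocytes, was at 5481 and 5677 with WT, 4256 and 4224 with H499A and 3549 and 3428 with EV, with both constructs above EV. Spi1, which encodes PU.1, differed by 0.24 ± 0.03 log2 units. Cebpb, a factor of emergency granulopoiesis, and Irf7, a regulator of the interferon response, were lower with WT, with differences of -0.37 and -0.79 log2 units. Irf7 passed the filter only through H499A, so its value is a description.

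Genes held active by MLL fusions were mostly lower with WT than with H499A. Of 18 tested HOX and MLL target genes 12 were called lower and 4 higher, with a median of -0.29, where 26.3% of all tested genes were called lower. Pbx3, a partner of HOX proteins, was at 199.6 and 206 with WT, 878 and 919.6 with H499A and 144 and 140.3 with EV, so that H499A was far above both and WT a little above EV. Hoxa9, the central HOXA oncogene of this leukaemia, was at 2953 and 2973 with WT, 4664 and 4816 with H499A and 3790.3 and 3751 with EV. Hoxa9 thus lay below the vector with WT and above it with H499A (log2 -0.30 and 0.29), and the 2 constructs differed by -0.59 ± 0.03 log2 units (limma adjusted p = 2.29e-16). Meis1, Hoxa10, Hoxa7 and Hoxa5 were lower with WT, with differences of -0.20, -0.27, -0.35 and -0.33 log2 units. Bcl2, the survival factor, went the other way, at 3329.8 and 3237 with WT, 1597 and 1655 with H499A and 3117 and 2996 with EV.

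Among 19 stem cell and self-renewal genes 12 were lower with WT and 3 higher, with a median of -0.15. Hmga2, a chromatin architectural protein of fetal stem cells, was at 66.2 and 87.5 with WT, 584 and 622 with H499A and 274 and 252 with EV. Its WT libraries were lowest and its H499A libraries highest. Msi2, an RNA-binding protein of leukaemia stem cells, was at 974 and 872 with WT, 1725 and 1681 with H499A and 1996 and 2011 with EV. Flt3, a growth factor receptor of early progenitors, was at 491 and 469 with WT, 741 and 712 with H499A and 1428 and 1357 with EV. Kit, Gata2, Erg and Bmi1 did not pass the test, with 95% intervals of -0.07 to 0.04, -0.08 to 0.05, -0.08 to 0.05 and -0.08 to 0.06 log2 units. Cd34, an antigen of progenitors, was higher with WT, at 7047 and 7105 with WT, 4081 and 3887 with H499A and 6312 and 6102 with EV, and here H499A lay lowest.

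**Figure D3:**
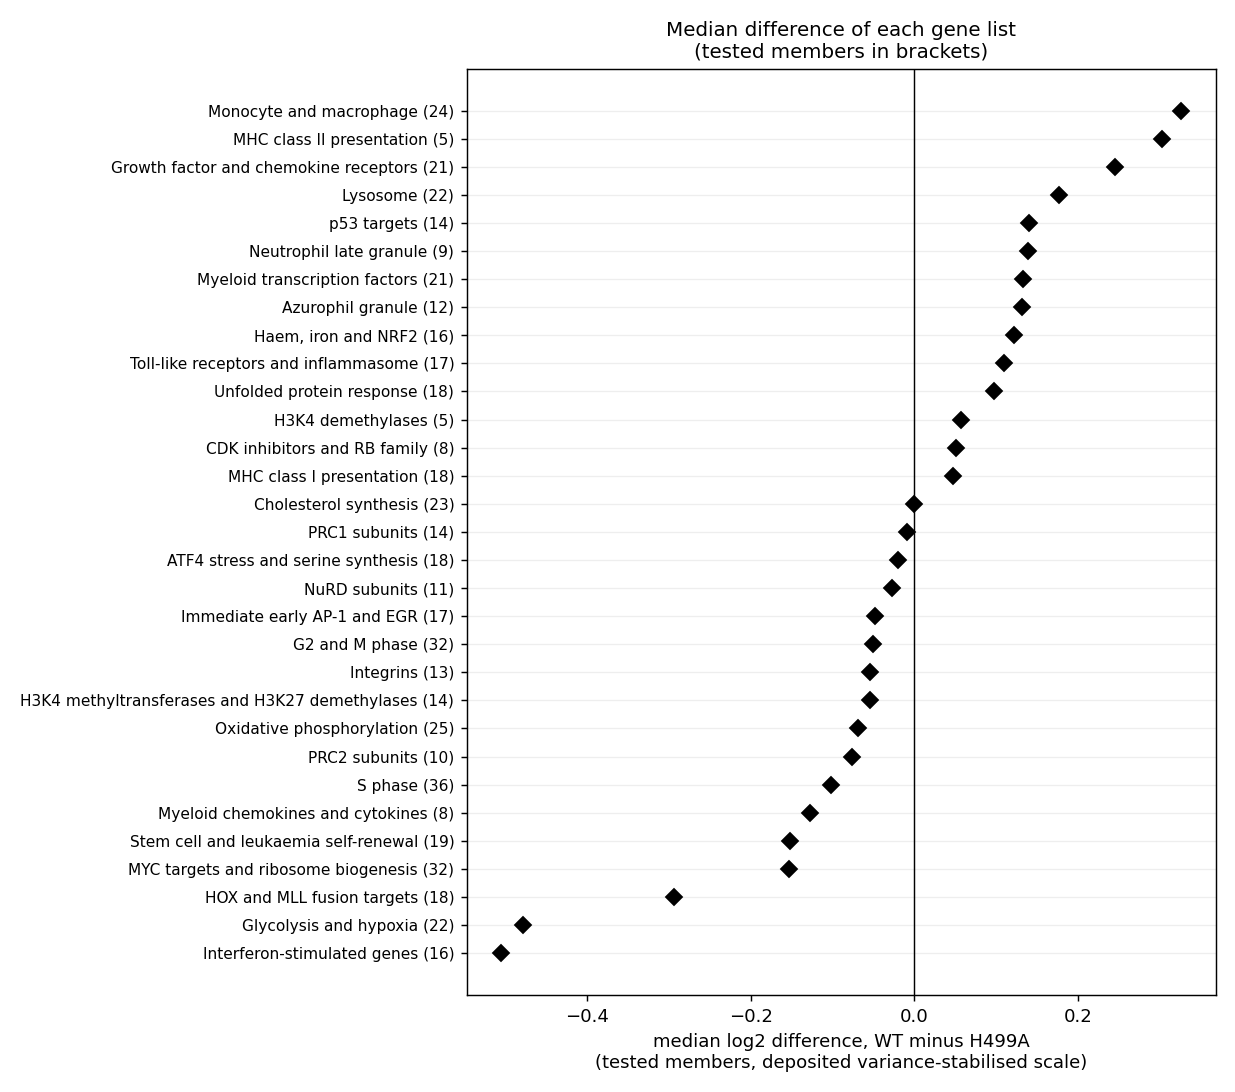
Median log2 difference of the tested members of 31 gene lists (y axis, tested members in brackets) on the deposited variance-stabilised scale (x axis), for WT minus H499A. Interferon-stimulated genes and glycolysis and hypoxia genes have the lowest WT minus H499A medians, -0.50 and -0.48, and monocyte and macrophage genes the highest, 0.33, while cholesterol synthesis lies at 0.00. Interferon-stimulated genes lie at -0.21 when only genes that pass the count filter in EV are used.

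Glycolysis and hypoxia genes were lower with WT almost throughout. All 22 tested members were called, 20 lower and 2 higher, with a median of -0.48. All of them also passed the filter on EV alone, with the same counts. Ldha, the lactate dehydrogenase subunit that serves glycolysis, was at 17962 and 18583 with WT, 32634 and 31982 with H499A and 32239 and 32828 with EV. Pgk1, an enzyme that yields ATP in glycolysis, was at 19458 and 19266 with WT, 32119 and 31743 with H499A and 28639 and 28594 with EV, and Eno1, an enolase, at 20427 and 20519 with WT, 33332 and 33182 with H499A and 32379.9 and 32206 with EV. Glycolytic genes have processed copies elsewhere in the genome, so part of these reads is uncertain in origin. In Ldha and Eno1 the H499A libraries lay close to EV and both WT libraries far below. Bnip3, a mitochondrial membrane protein of mitophagy that hypoxia induces, was at 1050.4 and 1003 with WT, 2796 and 2839.8 with H499A and 2409 and 2471 with EV, a log2 difference of -1.12 ± 0.03 (limma adjusted p = 4.37e-21). Slc2a1, the glucose importer, fell by 0.60 log2 units and Vegfa, the vascular growth factor, by 0.52. The 2 members that were higher with WT were Slc16a3, the lactate exporter, at 639.7 and 634 with WT, 150.4 and 148 with H499A and 351 and 324 with EV, and Pfkfb3, a regulator of glycolytic flux, with a difference of 0.21.

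Promoter sequences of this list are shown because many hold ACGTG, the core of the element that hypoxia-inducible factors bind. The letters, read on both strands and overlapping the E-box CACGTG, were found in 11 of the 21 members with a promoter in the RefSeq table (52.4%), between 250 bases before and 50 after the start site, in 27.6% of the 7397 promoters that matched tested genes (78.2% of them), and in 19.6% of all 32851 promoters of that table. This motif was chosen after the values were seen. Promoters matched under the 80% of tested genes needed, so these shares are not compared further. The stretches below are each 80 bases upstream of the start site, on the gene's strand of GRCm38.p6, with the motif in capitals: Ldha (chr7:46845724-46845803), Pgk1 (chrX:106186922-106187001), Bnip3 (chr7:138909572-138909651) and Slc2a1 (chr4:119108665-119108744), which were lower with WT, and Slc16a3 (chr11:120948987-120949066), which was higher.
Ldha: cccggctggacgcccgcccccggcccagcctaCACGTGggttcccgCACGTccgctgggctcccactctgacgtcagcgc
Pgk1: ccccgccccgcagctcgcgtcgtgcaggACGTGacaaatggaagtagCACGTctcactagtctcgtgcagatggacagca
Bnip3: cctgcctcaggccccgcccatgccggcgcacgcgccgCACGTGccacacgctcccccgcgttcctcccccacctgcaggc
Slc2a1: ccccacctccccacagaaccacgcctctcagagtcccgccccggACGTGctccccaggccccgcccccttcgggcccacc
Slc16a3: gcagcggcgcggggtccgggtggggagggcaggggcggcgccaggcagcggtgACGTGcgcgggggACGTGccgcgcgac
Eno1, Pfkl and Tpi1 were lower with WT, with differences of -0.68, -0.81 and -0.73 log2 units, and the letters are not in their windows. A match is a description of the sequence and no sign of binding.

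Interferon-stimulated genes were mostly lower with WT than with H499A. Of 16 tested members 13 were called lower and 2 higher, with a median of -0.50. Oas2, Irf7 and Rtp4 passed the filter only through the H499A libraries, where they are high, so this count and median were partly set by the filter. With the filter on EV alone, 10 of 13 members were lower and 2 higher, with a median of -0.21, beside 26.2% of all genes lower. Oas1a, an enzyme that makes the oligoadenylates which activate RNase L, was at 354 and 399.9 with WT, 1064 and 1074 with H499A and 295 and 297 with EV. Its relatives Oas2 and Oas3 were at 29.4 and 29.5 with WT, 344 and 355 with H499A and 50.3 and 63.7 with EV, and at 92.4 and 82.5 with WT, 459.6 and 419 with H499A and 151 and 154 with EV, respectively. In both, WT lay below EV and H499A above. Ddx58, which encodes the RNA sensor RIG-I, was at 136 and 129.7 with WT, 495 and 508 with H499A and 205 and 214 with EV. Irf7, the factor that amplifies the response, was at 63 and 56 with WT, 301 and 322 with H499A and 82.8 and 107 with EV. Stat2, a transducer of interferon signals, was higher with WT, by 0.16 log2 units. The other 14 listed genes lay below the count filter. Without it, 25 of the 30 were called lower, beside 2914 of all 13949 genes. The genes so added have few reads, so this count is only a description. Ifit2 did not pass the test, with an interval of -0.12 to 0.04.

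The interferon-stimulated response element is shown for 4 of these promoters, with its core in capitals, 2 copies of TTTC with any 2 bases between them, read on both strands. The core was found in 9 of 12 members with a promoter in the table in 3.03% of the promoters of tested genes and in 3.44% of all promoters there, and since only 75.0% of the members had a promoter, their share is not read further. The stretches are 80 bases upstream of the start site, on the gene's strand of GRCm38.p6: Oas1a (chr5:120907526-120907605), Oas3 (chr5:120777690-120777769) and Bst2 (chr8:71537555-71537634), which were lower with WT, and Stat2 (chr10:128270248-128270327), which was higher.
Oas1a: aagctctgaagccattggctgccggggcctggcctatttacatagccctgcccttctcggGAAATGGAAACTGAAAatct
Oas3: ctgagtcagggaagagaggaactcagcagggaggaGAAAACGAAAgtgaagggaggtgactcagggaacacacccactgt
Bst2: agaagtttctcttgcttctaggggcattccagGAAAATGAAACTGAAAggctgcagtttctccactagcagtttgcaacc
Stat2: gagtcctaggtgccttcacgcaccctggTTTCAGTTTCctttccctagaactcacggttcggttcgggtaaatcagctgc
So the element was present in members of both directions.

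**Figure D4:**
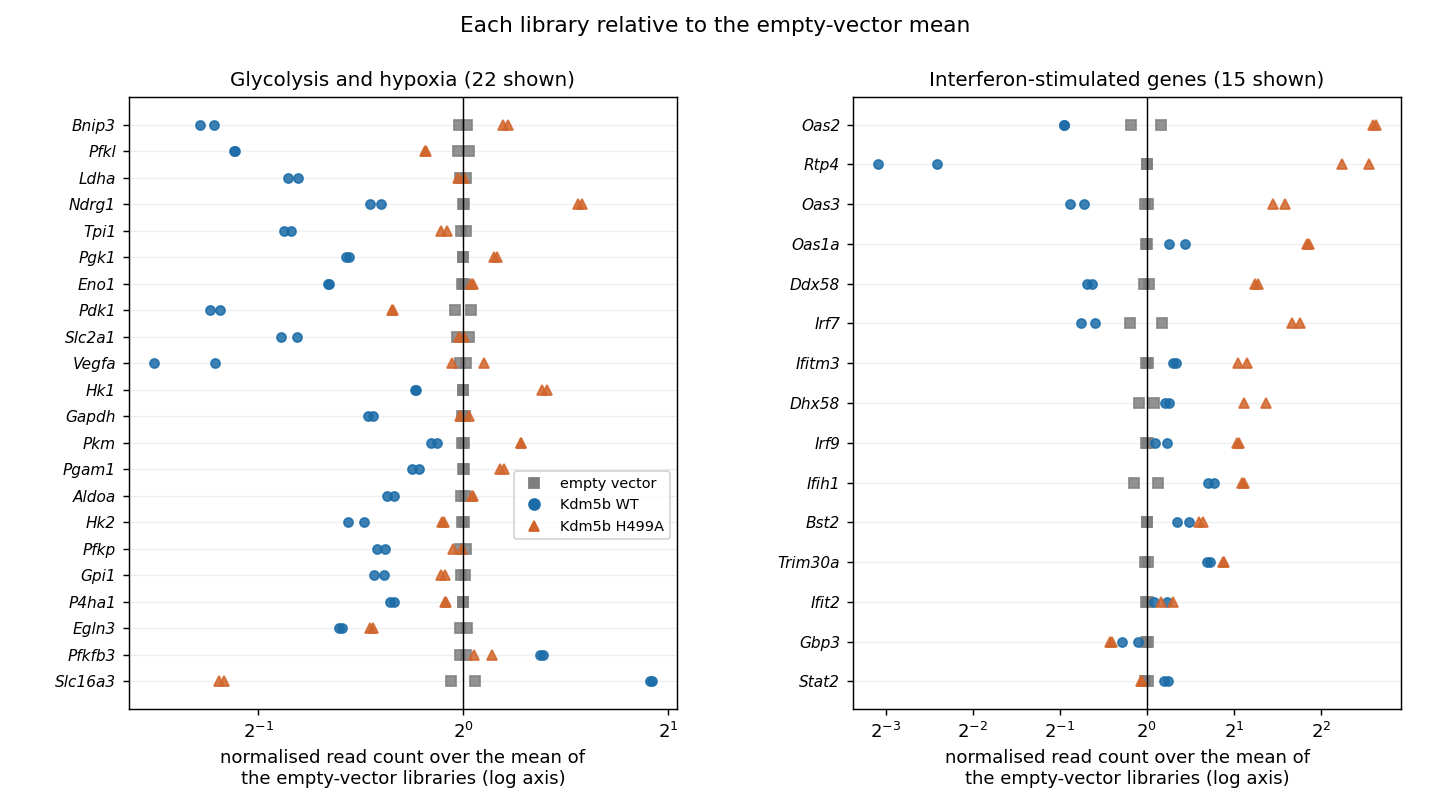
Normalised read count of each library divided by the mean of the empty-vector libraries (x axis, log scale) for the 22 tested glycolysis and hypoxia genes (left) and 15 of the 16 tested interferon-stimulated genes (right), with 2 points per group. On the left the WT libraries lie left of the vector in 20 genes while most H499A libraries lie near it; on the right the H499A libraries lie right of the vector in most genes, from Oas2 to Trim30a.

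MYC target and S phase genes were slightly lower with WT. Of 32 MYC target and ribosome biogenesis genes 28 were called lower and 0 higher by limma (0 at an unadjusted p under 0.05, and 0 by voom), with a median of -0.15. Npm1, a nucleolar chaperone, was at 35061 and 34781 with WT, 46738 and 46052 with H499A and 49493 and 50211 with EV. Ncl, the nucleolin of the same compartment, was at 35623 and 34509.9 with WT, 45173 and 45430.0 with H499A and 47459 and 47703 with EV. In both, H499A lay a little below EV and WT well below both. Myc itself differed by 0.08 log2 units in the other direction (limma adjusted p = 0.0145). Of 36 S phase genes 21 were lower and 3 higher, with a median of -0.10, led by Rrm2, a ribonucleotide reductase subunit, at 4124 and 4136 with WT, 6494 and 6511 with H499A and 6294 and 6365 with EV. Of 32 G2 and M phase genes 13 were lower and 4 higher, with a median of -0.05, and 15 did not pass the test. Those 13 are 40.6% of the list, beside 26.3% lower over all genes. Without H499A replicate 2 they were 8, or 25% of the list, beside 21.6% over all genes, a share near the background.

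Among CDK inhibitors and RB family genes 3 of 8 were higher with WT and 2 lower, near the 28.2% and 26.3% over all genes. Cdkn2a, which encodes the tumour suppressors INK4A and ARF, was at 318 and 315 with WT, 84.5 and 87.8 with H499A and 61.1 and 61.5 with EV, so WT was 3.68 times H499A; it passed the filter only through WT. Cdkn1b, which encodes the brake p27, was at 912 and 938 with WT, 509.8 and 471 with H499A and 608 and 695 with EV. In Cdkn2a the H499A libraries lay nearer to EV than to WT, and in Cdkn1b they lay below it. Of 14 p53 targets 8 were higher and 3 lower, with a median of 0.14. Zmat3, an RNA-binding p53 target, was at 478 and 498 with WT, 174 and 190.1 with H499A and 146 and 139 with EV, and Bbc3, the death factor PUMA, was 1.87 times higher with WT. Fas, a death receptor, and Cdkn1a, which encodes p21, were lower with WT, with differences of -0.41 and -0.16 log2 units.

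Chromatin regulators differed in single members. Kmt2a, the gene for MLL, was at 4153 and 4041 with WT, 6860.1 and 6811 with H499A and 4952 and 4721 with EV, a log2 difference of -0.67 ± 0.03. The introduced fusion holds part of MLL and of AF9, and the labels do not give its sequence, so reads of the fusion and of Kmt2a, or of Mllt3 (the gene for AF9, at -0.43 log2 units), cannot be told apart. Kdm6b, a demethylase of lysine 27 of histone H3, was at 623 and 552 with WT, 896 and 871 with H499A and 854 and 810.3 with EV. Of 10 PRC2 genes, which deposit methylation on that lysine, 5 were lower and 2 higher with WT. Jarid2, which guides PRC2 to chromatin, was at 1900.2 and 1719.6 with WT, 3000.1 and 2990.3 with H499A and 2049 and 2182 with EV. Ezh2, the catalytic subunit, did not pass the test (interval -0.10 to 0.01), and its less active relative Ezh1 was 1.37 times higher with WT. PRC1 genes were 4 lower and 3 higher of 14, near the shares over all genes of 26.3% and 28.2%. Of 11 NuRD genes, a remodelling complex reported to associate with KDM5B, 2 were lower and 1 higher, and 8 did not pass. Without either H499A library only 1 of the 2 stayed lower.

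Of 23 cholesterol synthesis genes 5 were higher and 7 lower with WT than with H499A, with a median of 0.00, near the shares over all genes of 28.2% and 26.3%. Insig1, which holds the SREBP pathway back, was at 758 and 851 with WT, 573 and 552 with H499A and 1586 and 1613 with EV. It was far below EV in all 4 construct libraries, and lower with H499A than with WT. Of 18 unfolded protein response genes 11 were higher and 3 lower with WT than with H499A (median 0.10). Haem, iron and NRF2 genes were 9 higher and 3 lower of 16, with Gclm, a subunit that makes glutathione, at 2646 and 2623 with WT, 1548 and 1581 with H499A and 1406 and 1395 with EV. Oxidative phosphorylation genes were 13 lower and 2 higher of 25, with a median of -0.07.

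Surface and antigen presentation genes held some large single differences. Itga4, the integrin subunit that anchors progenitors in the marrow, was at 3727 and 3536 with WT, 8635 and 8552 with H499A and 9999 and 9885 with EV. H499A stayed nearer to EV and both WT libraries lay far below (log2 -1.13 ± 0.02, limma adjusted p = 1.41e-22). Itga1, a collagen receptor subunit, was at 1090.3 and 1003 with WT, 383 and 355 with H499A and 352 and 386 with EV, with WT alone raised. Cd74, the chaperone of MHC class II, was at 638 and 675 with WT, 1332 and 1373 with H499A and 259 and 262 with EV, above EV with both constructs and highest with H499A. Over 18 genes of MHC class I presentation 6 were higher and 3 lower with WT, and 9 did not pass, near the 28.2% higher and 54.4% called over all genes; without H499A replicate 1 the 6 became 3.

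The defining markers of the labelled cells were present in every library: Ptprc, Spi1, Itgam, Mpo, Hoxa9 and the other haematopoietic markers summed to 104485 to 143742 normalised counts, most of it Mpo. Of the 10 markers of stromal and endothelial cells 3 were in the table and summed to 3823 to 3956 counts with EV, 5738 to 5835 with WT and 4686 to 4730.1 with H499A, most of it Pecam1, an adhesion molecule that leukocytes also carry. Of the 11 dendritic cell markers 5 were there, at 2260.3 to 2317 with EV, 1751 to 1843 with WT and 2228 to 2268 with H499A. Of the 10 megakaryocyte markers 7 were there, at 1417 to 1459.7 with EV, 1181 to 1209 with WT and 968 to 1024 with H499A. Of the 11 erythroid markers 3 were in the table (283.6 to 644 counts summed), of the 12 T and NK markers 2 (64.9 to 113), of the 10 mast cell markers 2 (77.7 to 173), of the 13 basophil and eosinophil markers 2 (99.2 to 407), and of the 11 B cell markers 2, which summed to 239 and 259 with WT, 694 and 679 with H499A and 330.4 and 341 with EV. Nearly all of the latter was Cd79b, a B cell receptor subunit, at 224 and 239.8 with WT, 678 and 666 with H499A and 317 and 329 with EV. No marker in the table was at 0 reads in any group, and the part of these markers in any result above was not tested.

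The genes called between WT and H499A were then read in the knockdown, which shares no library with them. There Kdm5b was at 61.6, 94.8 and 67.0 normalised counts with shEV and at 34.1, 28.8 and 23.2 with shKdm5b, so 38.5% of it was left. Of the 4882 called genes tested there, 37.1% were called with shKdm5b, beside 32.5% of all genes tested in the knockdown. This share depends on single libraries: it was 57.2% without shKdm5b replicate 1 and 21.1% to 22.2% without any 1 of the shEV libraries. In these settings the share over all tested genes was not computed, so 32.5% is no background for them. Of the 2569 genes higher with WT, 17.3% rose and 19.3% fell with shKdm5b. Of the 2313 genes lower with WT, 15.0% rose and 22.7% fell. Over all 9108 genes tested in both tables these shares were 14.5% and 18.4%. Read from the knockdown, 33.7% of the genes that rose there were higher with WT and 26.3% lower, and of those that fell there 29.6% were higher with WT and 31.3% lower. Across these genes, which are not independent replicates, the log2 differences had a Pearson r of -0.03 and a Spearman rho of 0.05.

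Of 68 genes at least 2-fold lower with WT that were tested in both tables, 42.6% rose and 22.1% fell with shKdm5b, and of 74 at least 2-fold higher, 27% rose and 33.8% fell. Lgals3 and Ly6c2, both low with WT against H499A, rose with shKdm5b by 1.29 and 1.22 log2 units (SE 0.06 and 0.04, n = 3 each, limma adjusted p = 4.24e-06 and 4.11e-07). Cd33 and Thbs1 rose by 0.75 and 0.91 (limma adjusted p = 0.00104 and 0.000246). Of the other leading genes lower with WT, Ly6c1 rose by 1.17 (limma adjusted p = 1.36e-06). Sp9, Colec12, Ddx4, Bahcc1 and Erbb3 were not tested there. Adrbk2, the named gene most in favour of WT, also rose, by 1.30 (limma adjusted p = 1.38e-06). Of the other leading genes higher with WT, Fmnl2 and Prdx4 rose as well, by 0.19 and 0.20 (limma adjusted p = 0.0188 and 0.0182). Ppic, Tmem176b, Decr1 and Ppfibp2 did not pass the test with shKdm5b, and Kdm5b, Bhlhb9 and Chdh were not tested there. Interferon-stimulated genes were 8 higher and 1 lower of 14 with shKdm5b, glycolysis and hypoxia genes 8 higher and 1 lower of 22, and HOX and MLL targets 5 higher and 5 lower of 21, where 15.0% of all tested genes were called higher and 17.4% lower. MYC and ribosome biogenesis genes were 25 lower and 0 higher of 32 by limma (1 higher at an unadjusted p under 0.05). Monocyte and macrophage genes were 12 higher and 11 lower of 32.

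**Figure D5:**
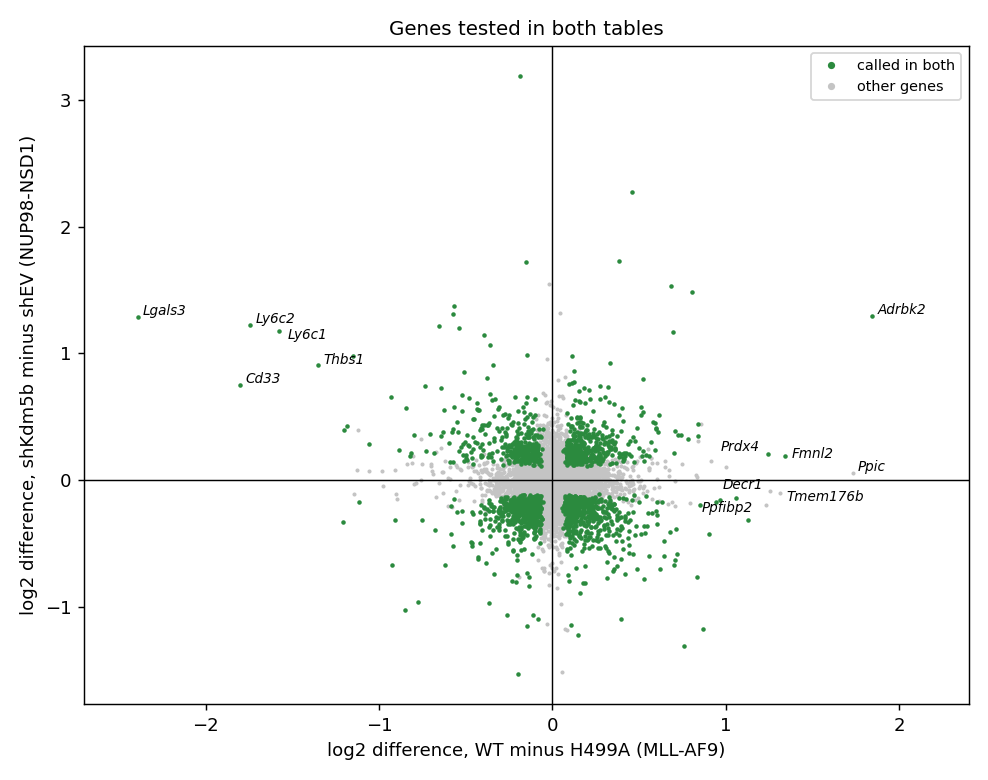
Log2 difference between shKdm5b and shEV in NUP98-NSD1 cells (y axis) against the log2 difference between WT and H499A in MLL-AF9 cells (x axis) for the 9108 genes tested in both tables, with genes called in both in green. The Pearson r over all points is -0.03, while Lgals3, Ly6c2, Ly6c1, Cd33 and Thbs1 lie together at the upper left and Adrbk2 at the upper right.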

How the data were processed

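RNA-seq of 6 MLL-AF9 libraries (2 each of EV, WT and H499A) and of 6 knockdown libraries (3 each of shEV and shKdm5b) was used. Per the submitters' processing notes, STAR 2.4.2, Salmon 0.1.19 and DESeq2 1.38.2 were used with mm10 (GRCm38.p4). The authors deposited variance-stabilised log2 values, on which low counts lie close together. Inverting the transformation from the lowest value of a table gave normalised read counts. Divided by the value of 1 read, 100% of them came out whole (tolerance 0.05), and this gave the reads and the depth (17.3 to 20 M; knockdown 21.3 to 34.8 M).

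Levels and folds are in normalised counts, with no correction for gene length, and tests used the deposited log2 values. A gene was tested when 2 libraries (3 in the knockdown) exceeded the table's lowest value by 1 log2 unit, which is 145 normalised counts (86.6 in the knockdown); 9458 of 13949 and 10810 of 15623 genes passed. limma 3.58.1 (R 4.3.3; 1 mean per group over all libraries of a table, 3 residual degrees of freedom in the MLL-AF9 table, eBayes with trend, 2-sided) gave p-values. The Benjamini-Hochberg adjustment ran over every tested gene of a table, and an adjusted p under 0.05 was a call. WT and H499A share EV in their comparisons with the vector, so these values are only set side by side. The fit was tested on simulated data.

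Genes named are Kdm5b, the tested H3K4 demethylases, the 10 largest differences each way among called genes whose WT and H499A libraries do not overlap, and, for each gene list with at least 3 tested members, the called members of lowest adjusted p, up to 4; predicted and unnamed genes were left out. Other list members were chosen after their values were seen. The comparison, its members and the lists were chosen with earlier results of these data known. No set test was run. Gene positions and promoters are from RefSeq (GRCm38.p6; 98.8% of tested genes matched by name), the Kdm5b transcript from GENCODE. Promoters matched 7397 of 9458 tested genes (78.2%), under the 80% needed, so a count of motifs over all called genes is void. The inhibitor libraries of the study were not used here, and a few list members are not reported here.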

Additional observations from a re-analysis of the deposited data

How the results depend on the processing

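The comparison was recomputed under 17 alternatives (filters, centring, quantile normalisation, eBayes settings, log2 of the count plus 1, voom on the recovered reads, only the 4 libraries compared, the replicate block, each library left out, and, added after seeing the data, a filter on the EV libraries alone). The 2663 genes called higher and 2483 lower with WT became 1736 and 1924 with a filter at 2 log2 units, which tests 5937 genes, and 107 and 141 with a 2-fold minimum. Without a filter they were 2892 and 2914, with the filter on EV alone 2533 and 2371, and with median centring 2325 and 2790. Leaving out 1 library gave 2127 to 2601 higher and 2026 to 2411 lower. The Kdm5b difference stayed between 1.32 and 1.385 log2 units when 1 library was left out. Replicate numbers do not pair the libraries (correlations of same-numbered deviations of -0.05, -0.01 and -0.03); with the replicate block 2710 genes were higher and 2528 lower. Of 143 other named genes, 139 kept their direction and call in every alternative in which they were tested. Most of them were picked by size or p-value in the main fit, so this does not extend to the other called genes. Kdm5a lost its call in 9 alternatives, Mbd3 in 5 and Kdm5c in 4, and Kdm1a, not called, at -0.02, ranged from -0.040 to 0.0016 with 1 library left out. Of the 33 list counts, these moved by over 1.5 times. Interferon-stimulated genes called lower went from 13 to 25 without a filter and to 6 with the stricter filter, chemokines and cytokines from 4 to 11 and to 2. The stricter filter also left 7 of 11 myeloid transcription factors, 5 of 8 p53 targets and 1 of 3 MHC class II genes higher, and 5 of 8 immediate early genes lower, since fewer members are tested. With 1 library left out, 8 (without H499A replicate 2) to 12 of 13 G2 and M phase genes stayed lower, and without H499A replicate 1, 3 of 6 MHC class I genes stayed higher. H3K4 demethylases called higher went from 2 to 1 in the alternatives in which Kdm5a lost its call and with the filter on EV alone, which leaves Kdm5b untested, and NuRD genes called lower from 2 to 1 with quantile normalisation, without trend and without either H499A library; the cause was not tested. In the knockdown, 37.1% of the called genes and 62.7% of those at least 2-fold apart were called, beside 32.5% of all genes tested there. Without a filter, 34.4% of the called genes were called. Added after seeing the data, leaving out 1 knockdown library gave 21.1% to 57.2% of the called genes, and the replicate block 36.9%. The share over all genes was not computed in these alternatives. With 2 libraries a group, depth limits genes under about 145 normalised counts, and 4491 genes were not tested.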

Other observations

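Smaller lists, outside the main results, were also split between the constructs, where 26.3% of all tested genes were lower and 28.2% higher. Of 17 immediate early genes 8 were lower and 4 higher with WT than with H499A; among the higher ones was Dusp6, a phosphatase that limits ERK signalling, at 1289 and 1376 with WT, 831 and 843 with H499A and 1204 and 1194 with EV. Of 8 myeloid chemokines and cytokines 4 were lower and 2 higher, with Ccl3, a chemokine for monocytes, at 862 and 894 with WT, 1185 and 1238 with H499A and 1474 and 1481 with EV. Of 18 ATF4 stress and serine synthesis genes 7 were lower and 3 higher, with Phgdh, the first enzyme of serine synthesis, at 11404 and 11885 with WT, 13353 and 13189.7 with H499A and 14036 and 14545 with EV. Of 14 H3K4 methyltransferases and H3K27 demethylases 4 were lower and 3 higher, of 13 integrins 5 lower and 4 higher, and of 5 MHC class II genes 1 lower and 3 higher. Some immediate early, chemokine and MHC class II genes passed the count filter only through WT or only through H499A, so their list counts were partly set by it. With the filter on EV alone, 7 of 15 immediate early genes were lower and 4 higher. Of 5 chemokines and cytokines 3 were then lower and 1 higher, and of 4 MHC class II genes 1 lower and 2 higher. Of 3 tested dendritic cell markers 2 were lower with WT, Flt3 and Bst2, and both basophil and eosinophil markers in the table were lower. The only tested mast cell marker was lower, but it passed the count filter only through the H499A libraries, so this is a description, with no test. The only tested markers of megakaryocytes and of stromal and endothelial cells were higher, and the only tested erythroid marker was not called.

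Chromosome 15 was the chromosome whose genes stood lowest with WT against H499A. The median over its 361 tested genes was -0.04 log2 units, and -0.04 to -0.03 in each of the 4 pairs of a WT with an H499A library, where the medians of the other chromosomes lay between -0.01 and 0.02. On it 37.4% of the genes were called lower and 19.4% higher with WT, against 22.8% to 30.6% lower on the others. Its median was 0.03 for H499A minus EV and -0.01 for WT minus EV. The chromosome was picked out after its value was seen, and no test was run.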
